A study of Homo sapiens with 4 samples.

Results

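The hypoxia response genes outside glycolysis were followed in MDA-MB-361 cells with and without short hairpin RNAs (shRNAs) against DCD, which encodes the secreted peptide dermcidin. The set held 33 named genes, chosen by name as subunits of the hypoxia-inducible factors (HIFs) or as genes known to be induced at low oxygen, with the enzymes of glycolysis left out. The rule itself uses no measured value, but the genes were chosen with earlier results of these data known. Of these 33 genes, 32 had a probe set that reads a single gene, and 28 were bright enough to be tested, out of 12728 genes tested on the arrays. ANGPTL4, LOX, TMEM45A and PPFIA4 lay under the filter on low values, and CA9 was not analysed here.

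MDA-MB-361 is an established human breast cancer cell line of luminal type with amplified ERBB2. Its RNA was hybridized to 4 Affymetrix U133 Plus 2.0 arrays, 3 from derivatives that express different shRNAs against DCD from a pLKO-puro lentivirus (IBC-I, IBC-II and IBC-III, called clones 1, 2 and 3 in the labels) and 1 from cells carrying the pLKO vector alone. All 4 cultures thus carry the vector, and each shDCD array is a different hairpin and a different derived line. Whether oxygen was varied is not stated in the labels, which give only standard culture medium for the line. The pLKO control has no replicate and is shared by all 3 comparisons, so anything particular to that culture enters each of them.

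HIFs are transcription factors made of an oxygen-regulated alpha subunit, such as HIF1A or EPAS1, and the constant partner ARNT. In oxygen, prolyl hydroxylases mark the alpha subunit for degradation through the VHL ubiquitin ligase, so the subunit is set mainly at the protein level, and at low oxygen it accumulates and binds DNA at a short core motif near its target genes. Beside glycolysis, the targets serve mitophagy, acid-base balance, lipid and glycogen storage, secreted signals and feedback on the response itself. In breast tumors, hypoxia is a common feature of poorly perfused regions, and growth factor signaling through ERBB2 can raise HIF1A synthesis in oxygen as well.

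The intensities are given after quantile normalization, which gives every array the same distribution, with values under a floor of 16 set to 16. Where 3 values are given for shDCD cells, they stand in the order IBC-I, IBC-II, IBC-III. DCD has 1 probe set, and its deposited intensity was 7, 6 and 2.7 in shDCD cells and 2 in pLKO, all under that floor, so the arrays do not check the knockdown. The study itself reported lower DCD mRNA and protein in these derivatives by RT-PCR, immunocytochemistry and immunoblot. The 3' to 5' ratio of the control probe sets, which is high where RNA is degraded or incompletely labelled, was 9.67, 2.58 and 42.6 for ACTB in IBC-I, IBC-II and IBC-III and 5.29 in pLKO. The same ratio for GAPDH was 2.18, 1.02 and 13.1 in the shDCD arrays and 1.09 in pLKO. IBC-III also stood apart over all tested probe sets, with a Pearson correlation of 0.722 with pLKO, where IBC-I had 0.889 and IBC-II had 0.937. The part of RNA quality in the values below was not tested, and the counts of the set by order, by fold and by limma are also given without IBC-III. Luminal epithelial markers were bright on every array, with 9 of 10 above an intensity of 100 on all 4 arrays (FOXA1 lay at 96.7 in IBC-III) and sums of 22731 to 30697 in the shDCD arrays and 18476 in pLKO. Summed markers were 278 to 552 in shDCD and 267 in pLKO for fibroblasts, 48.0 to 66.3 and 89.0 for basal cells, 91.5 to 104 and 109.9 for endothelium, and 65.5 to 93.1 and 67.1 for leukocytes, with KRT5, KRT14, CDH5 and CD14 at the floor on all 4 arrays. In such bulk RNA, fewer cells that express a gene and less RNA per cell cannot be told apart.

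Many promoters of these genes hold the element through which HIFs are known to act. RefSeq promoters of 300 bases (250 before to 50 after the start, assembly GRCh38.p14) were matched for 26 of the 33 genes, ZNF395, BNIP3L, HILPDA, STC1, LOXL2, NDRG1 and RAB20 being those without one. They were searched on both strands for ACGTG and GCGTG, the core letters of the HIF binding motif. The palindrome CACGTG holds ACGTG on each strand and counts as 2 matches. Of the 26 promoters, 23 (88.5%) held a match, against 17012 of 35116 promoters (48.4%) in the whole table and 6331 of 10312 promoters (61.4%) of the tested genes. ACGTG alone was in 17 (65.4%), against 21.4% of all promoters and 26.3% of those of tested genes. The palindrome, singled out after its matches were seen, was in 10 (38.5%), against 7.26% and 10.1%. It is also the letter run that BHLHE40 and other basic helix-loop-helix factors are known to bind, and a match describes letters in this window, not a bound site.

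The following promoters are printed for AK4, ANKRD37, FUT11 and BNIP3, whose intensities were highest on the pLKO array, and for FAM162A and INSIG2, whose intensities were not. Each runs 5' to 3' along its gene, and capitals mark the matches to ACGTG or GCGTG on either strand.
AK4 (GRCh38.p14 chr1:65147302-65147601, plus strand): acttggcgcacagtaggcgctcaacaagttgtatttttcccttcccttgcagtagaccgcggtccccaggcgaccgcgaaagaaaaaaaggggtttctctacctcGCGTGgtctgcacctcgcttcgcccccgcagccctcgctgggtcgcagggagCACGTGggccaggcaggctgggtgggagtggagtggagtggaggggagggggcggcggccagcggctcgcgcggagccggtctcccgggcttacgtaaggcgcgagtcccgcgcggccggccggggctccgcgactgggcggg
ANKRD37 (GRCh38.p14 chr4:185396591-185396890, plus strand): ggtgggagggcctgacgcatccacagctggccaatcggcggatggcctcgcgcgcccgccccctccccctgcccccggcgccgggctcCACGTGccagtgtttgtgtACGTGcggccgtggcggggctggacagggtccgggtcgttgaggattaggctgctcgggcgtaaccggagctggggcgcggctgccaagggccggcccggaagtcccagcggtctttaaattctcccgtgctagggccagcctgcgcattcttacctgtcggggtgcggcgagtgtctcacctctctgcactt
FUT11 (GRCh38.p14 chr10:73772026-73772325, plus strand): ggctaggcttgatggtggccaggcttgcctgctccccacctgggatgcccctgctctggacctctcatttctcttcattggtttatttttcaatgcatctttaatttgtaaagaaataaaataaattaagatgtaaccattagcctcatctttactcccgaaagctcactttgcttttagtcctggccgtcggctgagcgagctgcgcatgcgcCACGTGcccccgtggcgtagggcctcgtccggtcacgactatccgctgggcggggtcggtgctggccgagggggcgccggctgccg
BNIP3 (GRCh38.p14 chr10:131981874-131982173, minus strand): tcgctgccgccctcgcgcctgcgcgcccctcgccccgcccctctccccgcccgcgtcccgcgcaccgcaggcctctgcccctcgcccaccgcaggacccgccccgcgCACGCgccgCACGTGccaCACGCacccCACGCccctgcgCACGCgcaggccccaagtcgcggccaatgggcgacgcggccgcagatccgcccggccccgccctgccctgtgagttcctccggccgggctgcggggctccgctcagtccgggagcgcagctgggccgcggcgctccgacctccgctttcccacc
FAM162A (GRCh38.p14 chr3:122383932-122384231, plus strand): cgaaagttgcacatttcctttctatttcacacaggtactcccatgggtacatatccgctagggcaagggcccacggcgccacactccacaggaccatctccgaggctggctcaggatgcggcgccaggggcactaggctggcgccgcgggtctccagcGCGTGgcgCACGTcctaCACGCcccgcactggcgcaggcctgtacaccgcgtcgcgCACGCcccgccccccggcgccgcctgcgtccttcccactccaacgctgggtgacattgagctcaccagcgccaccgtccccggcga
INSIG2 (GRCh38.p14 chr2:118088221-118088520, plus strand): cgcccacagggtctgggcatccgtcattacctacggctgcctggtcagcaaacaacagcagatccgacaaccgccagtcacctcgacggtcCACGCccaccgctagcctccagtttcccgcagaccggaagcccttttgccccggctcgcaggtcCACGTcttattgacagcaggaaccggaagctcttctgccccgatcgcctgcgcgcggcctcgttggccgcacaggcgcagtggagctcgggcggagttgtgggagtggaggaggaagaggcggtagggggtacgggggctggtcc
The 4 promoters of genes highest in pLKO each hold the palindrome, which begins at base -162 from the start in ANKRD37, -134 in BNIP3, -93 in AK4 and -36 in FUT11, with an added ACGTG in ANKRD37, an added GCGTG in AK4 and 4 added GCGTG matches in BNIP3. FAM162A has 4 matches, 1 of them ACGTG, and INSIG2 has 1 of each kind, so motif matches were also present in promoters of genes that were not lower in shDCD cells. The printed promoters are examples, and the palindrome did not divide the genes cleanly. VLDLR and GBE1 were also highest in pLKO and lack it, while PPP1R3C and WSB1 were not highest in pLKO and hold it.

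Across the set, the pLKO array lay above all 3 shDCD arrays for 14 of the 28 tested genes (50%), while it did so for 21.3% of all genes tested. The 14 genes were NDRG1, ANKRD37, FUT11, AK4, BNIP3, BNIP3L, HILPDA, VLDLR, CITED2, BHLHE40, MAFF, ZNF395, GBE1 and STC1. The pLKO array lay below all 3 shDCD arrays for 2 genes, INSIG2 and LOXL2, against a background of 18.8%, and within the range of the shDCD arrays for the other 12. Without IBC-III, the pLKO array lay above both remaining arrays for 18 of 28 genes (64.3%, background 30.8%), all 14 of the genes above among them, and below both for 4 (background 31.2%). All 14 genes would also have reached the filter on the shDCD arrays alone and on pLKO alone, as 27 of the 28 did (all but LOXL2), and among the 11363 genes of that kind 21.7% had pLKO above and 17.1% below all shDCD arrays. These shares were not tested, since the control is 1 array, and the genes were not chosen blind to these data.

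The study's rule for differential expression was a difference of 3-fold or more in every pair-wise comparison. Its methods also speak of a statistically significant difference in all 3 comparisons, which was not asked for here. The fold rule was applied here to the normalized values of each gene's brightest probe set. The study used dChip, so the calls need not be the same. By this rule 1 gene of the set was lower in shDCD cells (NDRG1), against 0.173% of all genes, and 0 were higher (background 0.0157%). At 2-fold in each comparison there were 3 lower, NDRG1, ANKRD37 and FUT11 (background 0.817%), and 0 higher (background 0.558%). Without IBC-III, 4 genes were at least 3-fold lower, NDRG1, FUT11, BHLHE40 and MAFF (background 0.55%), and 5 at least 2-fold lower, with ANKRD37 added (background 2.07%). Without IBC-I, 6 genes were at least 2-fold lower, with AK4, HILPDA and STC1 added to the 3, and without IBC-II there were 4, with CITED2 added. Both of these counts ask for fewer comparisons, which more genes can meet, and their shares over all genes are not given.

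Taken 1 array at a time, 6 of 28 genes (21.4%) were at least 2-fold lower than pLKO in IBC-I (background 9.09%), 10 (35.7%) in IBC-II (background 4.34%) and 10 (35.7%) in IBC-III (background 22.4%). None was 2-fold higher in IBC-I or IBC-II, where 7.2% and 3.33% of all genes were, and only HIF1A was in IBC-III, where 14.9% were. The median log2 difference of the 28 genes was -0.30, -0.64 and -0.33 for the 3 shDCD arrays in turn, and over all genes tested it was 0.01, 0.00 and -0.11. The 3 comparisons share the pLKO array, so they do not repeat one another independently.

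limma, a moderated linear model fitted to every probe set, whose spread here comes from the 3 shDCD arrays alone and is carried over to the single pLKO array, called 0 genes of the set and 0 of all 27307 probe sets at an adjusted p under 0.05 (background 0.0%), with 2 residual degrees of freedom. At an unadjusted p under 0.05 it had 3 genes of the set lower (NDRG1, ANKRD37 and FUT11) and 0 higher, where 0.495% of all genes were lower and 0.22% higher, and 124 probe sets in all were lower and 80 higher. Without IBC-III these were 5 genes of the set lower and 0 higher, where 190 of 12898 genes were lower and 111 higher. The adjusted p was 1.00 for each of the 28 genes. The labels do not say whether the 3 shDCD arrays came from more than 1 culture each, so their spread joins hairpin, line and technical differences.

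**Figure D1:**
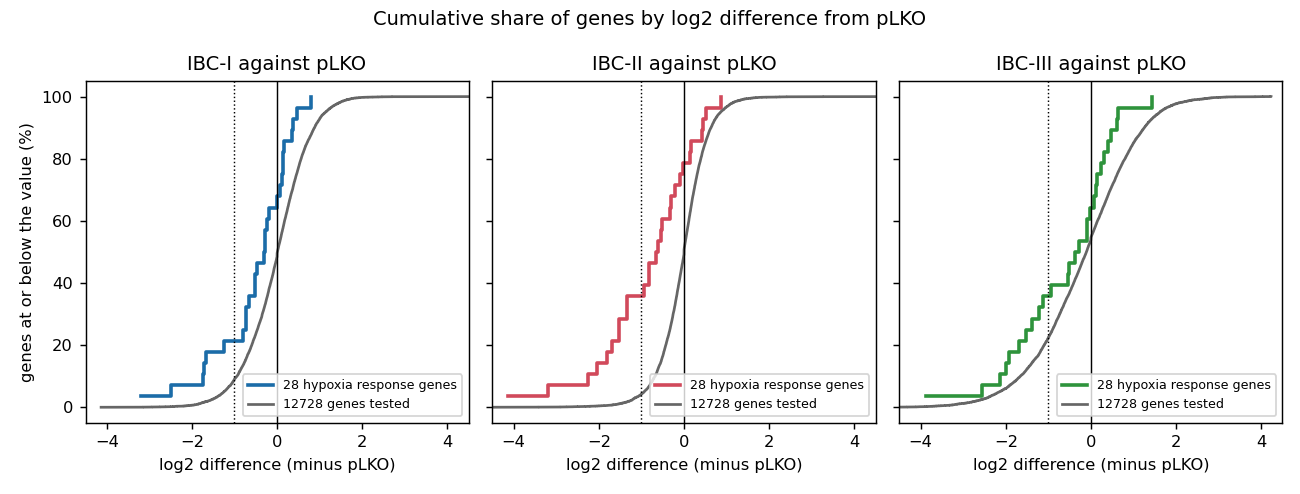
Cumulative share of genes (y axis, percent) against the log2 difference from pLKO (x axis) in IBC-I, IBC-II and IBC-III, for the 28 tested hypoxia genes and for all 12728 genes tested, with a dotted line at -1 (2-fold lower). The medians of the hypoxia genes, -0.30, -0.64 and -0.33 in IBC-I, IBC-II and IBC-III, lie to the left of those of all genes, 0.01, 0.00 and -0.11.

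In the plot of cumulative shares the hypoxia genes had reached 21.4%, 35.7% and 35.7% at the dotted line in IBC-I, IBC-II and IBC-III, against 9.09%, 4.34% and 22.4% for all genes. The gap was widest in IBC-II, where the share of all genes at that line was also the smallest. The control ratios differ between the arrays, and their part in the gap was not tested.

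The transcripts of the HIF subunits did not share this position, and the pLKO array lay within the shDCD range for all 3. HIF1A, the alpha subunit that drives the acute response, had normalized intensities of 1427, 1118 and 3474 in shDCD cells and 1291 in pLKO. It was close to pLKO in IBC-I and IBC-II (log2 differences 0.14 and -0.21), and 2.69-fold higher in IBC-III (mean log2 difference 0.45 ± 0.86, SD, n = 3). The control ratios of IBC-III were the highest of the 4, and their part in this value was not tested. EPAS1, which encodes HIF-2 alpha, was at 157, 211 and 209.5 in shDCD cells and 192 in pLKO (mean log2 difference -0.01 ± 0.24, SD, n = 3). ARNT, the common partner, was at 43.5, 52.2 and 36.8 in shDCD cells and 39.0 in pLKO (0.16 ± 0.25). By these brightest probe sets, no shDCD array lay further than 1.34-fold from pLKO for either gene. By other tested probe sets ARNT was 1.59-fold lower in IBC-I and, on another, 1.59-fold lower in IBC-III, with pLKO inside the shDCD range on both. Without the 3 subunits, which are regulators rather than induced genes, the pLKO array was above all shDCD arrays for 14 of the 25 remaining genes (56.0%).

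**Figure D2:**
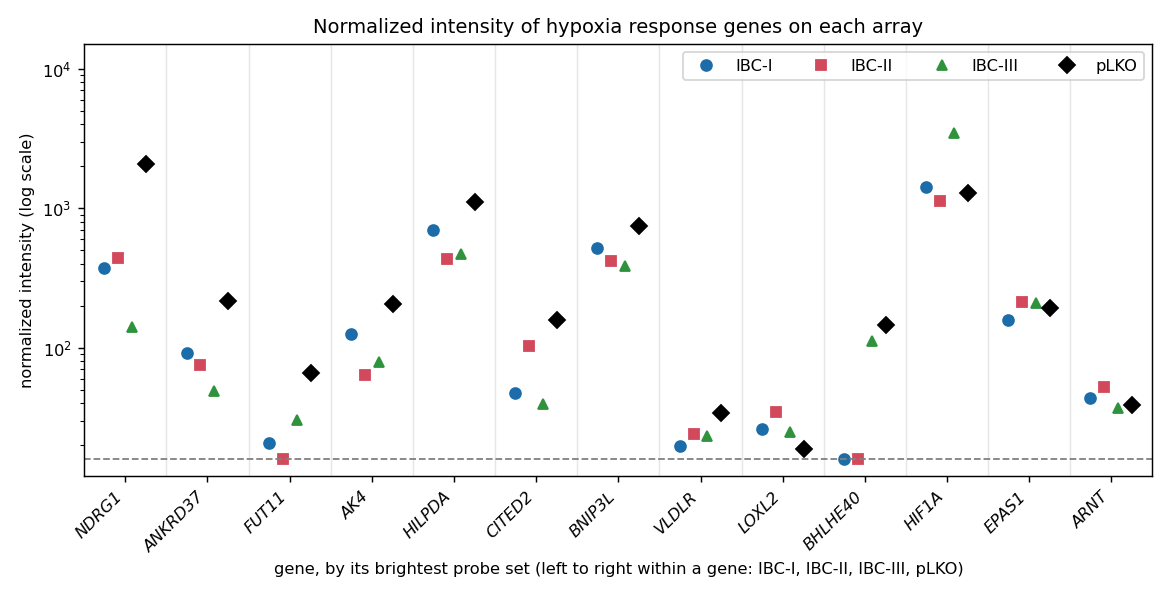
Normalized intensity (log axis) of 13 genes on the IBC-I, IBC-II, IBC-III and pLKO arrays, 1 point per array, with the floor of 16 as a dashed line. The pLKO point is the highest for NDRG1, ANKRD37, FUT11, AK4, HILPDA, CITED2, BNIP3L, VLDLR and BHLHE40, the lowest for LOXL2, and inside the shDCD range for HIF1A, EPAS1 and ARNT.

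Among the transcription factors and cofactors, pLKO was highest for 4 of 5. CITED2, a cofactor that competes with HIF1A for the coactivators CREBBP and EP300 and so damps the response, had intensities of 47.1, 103 and 39.3 in IBC-I, IBC-II and IBC-III and 157 in pLKO. It was 3.34-fold, 1.52-fold and 4.01-fold lower in shDCD cells (mean log2 difference -1.45 ± 0.74, SD, n = 3), and its other tested probe set also had pLKO highest. BHLHE40, a repressor induced by HIF and by the circadian clock, was at the floor in IBC-I and IBC-II and at 112 in IBC-III, and at 146 in pLKO. In both arrays at the floor it was at least 9.13-fold lower, and in IBC-III 1.30-fold lower (-2.25 ± 1.62), so its size rested on the 2 arrays without signal and was small in IBC-III. MAFF, a small MAF protein, was likewise nearest to pLKO in IBC-III, with 86.0 in IBC-I, the floor in IBC-II and 267 in IBC-III, and 283 in pLKO (3.29-fold, at least 17.7-fold and 1.06-fold lower). Its second probe set had 60.0, 35.3 and 127 in shDCD cells and 86.9 in pLKO, so that IBC-III was above pLKO there. ZNF395, a zinc finger protein, was 1.24-fold, 1.44-fold and 2.89-fold lower, with both tested probe sets highest in pLKO. RORA, a nuclear receptor, was at 37.4, 34.9 and 52.0 in shDCD cells and 37.4 in pLKO, inside the shDCD range.

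The mitochondrial group was highest in pLKO for 3 of 4 genes. AK4, an adenylate kinase of the mitochondrial matrix, had intensities of 125, 63.7 and 78.7 in IBC-I, IBC-II and IBC-III and 206 in pLKO. It was 1.65-fold, 3.23-fold and 2.61-fold lower (mean log2 difference -1.27 ± 0.50, SD, n = 3), and its 4 probe sets all had pLKO above every shDCD array, 1 of them being bright enough to be tested only through its pLKO value. BNIP3L, a receptor that marks mitochondria for removal by autophagy, was at 517, 420.3 and 383 in shDCD cells and 739 in pLKO. It was 1.43-fold, 1.76-fold and 1.93-fold lower, the 3 shDCD arrays lying near each other and apart from pLKO (-0.76 ± 0.22), and its other probe set had the same order. BNIP3, the related mitophagy receptor whose promoter is printed above, differed by 1.66-fold, 2.90-fold and 1.22-fold (lower) on its brighter probe set, with 845, 483 and 1149 in shDCD cells and 1402 in pLKO. By the dimmer probe set the difference was larger, with 212, 227 and 109 in shDCD cells and 581 in pLKO. FAM162A, a mitochondrial protein linked to cell death in hypoxia, was the exception. It had 536, 579 and 509 in shDCD cells and 514 in pLKO, at most 1.13-fold from pLKO on any array by its brightest probe set, and none of its 5 probe sets had pLKO above all shDCD arrays. Its dimmer probe sets spread further, 1 of them with 28.6, 37.4 and 65.9 in shDCD cells and 21.5 in pLKO, below all 3, and another with 59.3 in IBC-I and the floor in IBC-II and IBC-III, and 25.8 in pLKO.

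CA12, a membrane carbonic anhydrase that is also an estrogen-responsive gene in breast cells, had 643, 235 and 408 in shDCD cells and 373 in pLKO by its brightest probe set. It was thus higher in IBC-I and lower in IBC-II. Its 6 tested probe sets divided, 2 of them with pLKO above every shDCD array and 4 without. In 1 of those 4, pLKO lay below every shDCD array, with 44.4, 22.2 and 55.1 in shDCD cells and 21.4 in pLKO.

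The lipid and sterol genes held both directions. HILPDA, a lipid droplet protein that inhibits the lipase ATGL, had intensities of 703, 433 and 472 in IBC-I, IBC-II and IBC-III and 1104 in pLKO. It was 1.57-fold, 2.55-fold and 2.34-fold lower (mean log2 difference -1.08 ± 0.37, SD, n = 3), and its second probe set had 371, 284 and 137 in shDCD cells and 930.2 in pLKO. VLDLR, a lipoprotein receptor, was dim, at 19.7, 23.9 and 23.5 in shDCD cells and 34.2 in pLKO. Its 1.74-fold, 1.43-fold and 1.46-fold lower values (-0.62 ± 0.16) stood near the floor, and pLKO no longer stood above the shDCD arrays with a floor of 64. INSIG2, which holds back sterol synthesis in the endoplasmic reticulum, was higher in every shDCD array, at 109, 116 and 132, and at 85.7 in pLKO (1.27-fold, 1.35-fold and 1.54-fold higher). ANGPTL4, an inhibitor of lipoprotein lipase, was at the floor in all 3 shDCD arrays and at 20.4 in pLKO, too dim to be tested.

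Of the glycogen genes, GBE1, the glycogen branching enzyme, was 1.39-fold, 1.23-fold and 3.82-fold lower, with 80.2, 90.5 and 29.2 in shDCD cells and 112 in pLKO. Its difference was mostly that of IBC-III, and with the deposited values, before normalization, pLKO no longer stood above all 3 shDCD arrays. PPP1R3C, which targets protein phosphatase to glycogen, was higher than pLKO in IBC-I and IBC-III and lower in IBC-II (log2 differences 0.37, 0.63 and -0.82).

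The secreted products were mixed. STC1, a glycoprotein hormone of calcium and phosphate handling, was 1.22-fold, 3.49-fold and 3.20-fold lower, at 73.1, 25.6 and 27.9 in shDCD cells and 89.4 in pLKO, and its other probe set (22.5, 16.1 and 16 in shDCD cells, 73.2 in pLKO) was tested only through its high pLKO value. STC2, its relative, depended on the array. It was at 61.0, 34.4 and 102 in shDCD cells and 87.3 in pLKO, and its second probe set was at 19.4, 16 and 265 in shDCD cells and 57.3 in pLKO, so IBC-III was above pLKO by both and IBC-I and IBC-II below it by both. LOXL2, a lysyl oxidase that crosslinks collagen, was at 26.0, 34.6 and 25.0 in shDCD cells and 18.9 in pLKO (1.38-fold, 1.83-fold and 1.33-fold higher; mean log2 difference 0.58 ± 0.25, SD, n = 3). Its second tested probe set had the opposite order, at 23.0, 25.1 and 22.7 in shDCD cells and 31.0 in pLKO, and leaving out any 1 shDCD array made that probe set the brighter one, so LOXL2 had no settled direction. LOX, the enzyme that gives this family its name, was at the floor on all arrays but IBC-II, where it was at 16.6. MIF, an inflammatory cytokine, was bright on every array (4475, 3310.2 and 2902 in shDCD cells and 4125 in pLKO), and NAMPT, an enzyme of NAD synthesis that is also secreted, was at 223, 257 and 273 in shDCD cells and 261 in pLKO, with pLKO inside the shDCD range for both.

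The remaining group, of signaling, trafficking and other proteins, held the 3 genes that were at least 2-fold lower on every array. NDRG1, a stress protein that is among the most regularly hypoxia-induced transcripts in epithelial cells, had intensities of 369.8, 437 and 141 in shDCD cells and 2078 in pLKO. It was 5.62-fold, 4.76-fold and 14.8-fold lower (mean log2 difference -2.88 ± 0.88, SD, n = 3), and it was 1 of 22 genes on the arrays at least 3-fold lower in each comparison. ANKRD37, an ankyrin repeat protein known as a direct HIF1 target, had 91.8, 75.3 and 48.9 in shDCD cells and 217 in pLKO. It was 2.36-fold, 2.88-fold and 4.43-fold lower (-1.64 ± 0.46), and its promoter, printed above, holds 3 ACGTG matches. FUT11, a fucosyltransferase of the secretory pathway listed in the current table as POFUT4, was at 20.7 in IBC-I, at the floor in IBC-II and at 30.1 in IBC-III, and at 65.6 in pLKO. In IBC-II it was at least 4.10-fold lower, with 3.16-fold in IBC-I and 2.18-fold for IBC-III (-1.61 ± 0.46), with all shDCD values near the floor. NDRG1 has 1 probe set, and the other probe set of ANKRD37 and of FUT11 was at the floor on all 4 arrays. These 3 genes thus had no second tested reading.

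The other members of that group did not stand apart from pLKO on all arrays. WSB1, a subunit of a ubiquitin ligase, was lower in IBC-I and IBC-II and higher in IBC-III by its brightest probe set (359.6, 211 and 504 in shDCD cells and 407 in pLKO), while another probe set had 288, 219 and 207 in shDCD cells and 417 in pLKO. RAB20, a small GTPase of endosomes and phagosomes, was at 156, 202 and 23.8 in shDCD cells and 141 in pLKO, so it was 5.92-fold lower in IBC-III alone. TMEM45A, a transmembrane protein, reached 21.6 in IBC-I and was at the floor in IBC-II and IBC-III and at 16.1 in pLKO, and PPFIA4, a liprin, was at the floor on all 4 arrays.

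**Figure D3:**
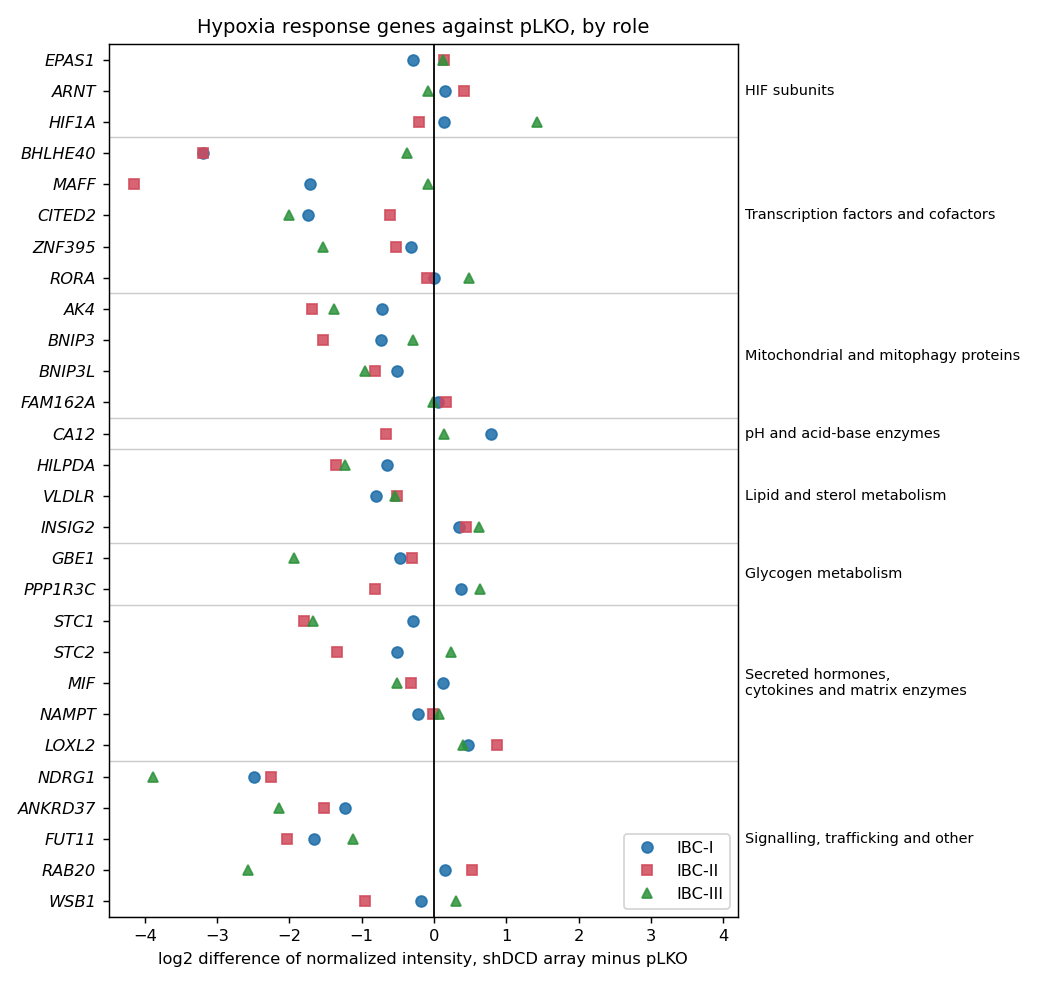
Log2 difference from pLKO (x axis) of the 28 tested hypoxia genes, ordered by role, 1 symbol per shDCD array, with a line at 0. All 3 symbols lie left of 0 for 14 genes and right of 0 for INSIG2 and LOXL2, and the HIF subunits straddle the line.

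Genes with several probe sets allowed a second reading within the same arrays. Of 58 tested probe sets of the set, 28 (48.3%) had pLKO above every shDCD array and 6 below, where over all 27307 tested probe sets 20.0% were above and 19.4% below. AK4, BNIP3, BNIP3L, HILPDA, STC1, CITED2 and ZNF395 had this order by every tested probe set, whereas MAFF had it by 1 of 2. For AK4 and STC1, 1 probe set each reached the filter only through its pLKO value and so had to average lower in shDCD cells. Of the 52 probe sets that reached the filter in each group alone, 26 had pLKO above every shDCD array and 4 below, where of 23092 such probe sets on the arrays 4826 were above and 3878 below. Without IBC-III, pLKO was above both remaining arrays for 35 of 57 probe sets and below both for 9, and over all tested probe sets for 8207 and 8485 of 27307. CA12, NAMPT, WSB1 and LOXL2 had pLKO above every shDCD array by some probe sets but not by the brightest one. CA12, NAMPT and RORA each also had 1 dimmer tested probe set with pLKO below every shDCD array. Probe sets of 1 gene share the RNA of the array and are not replicates.

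**Figure D4:**
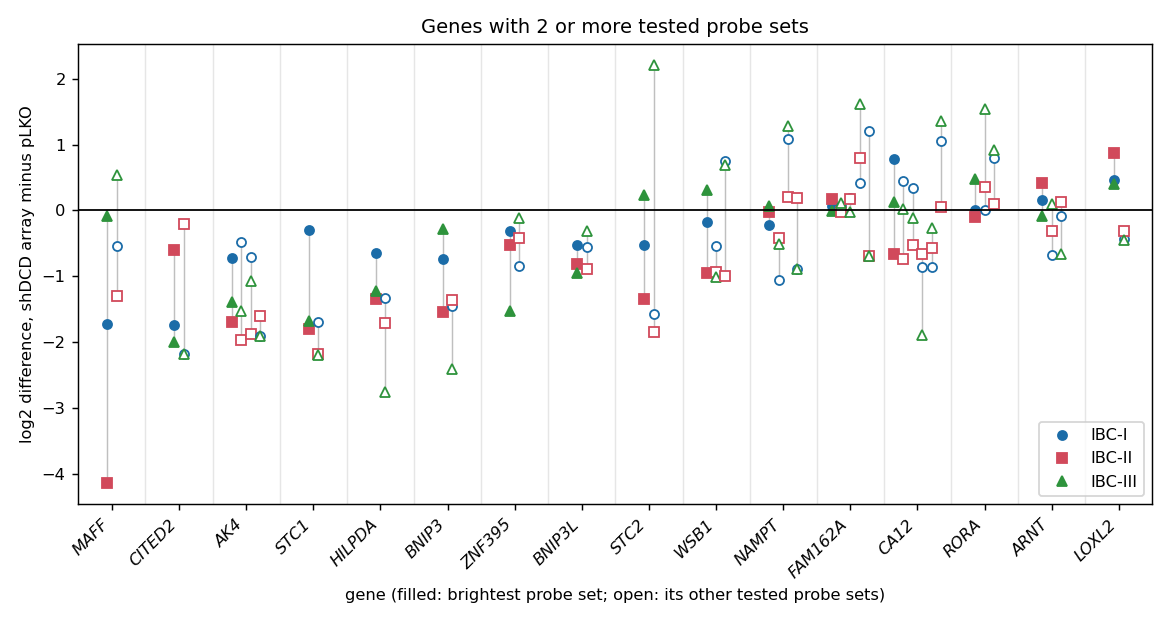
Log2 difference from pLKO (axis in log2) for every tested probe set of the hypoxia genes with 2 or more tested probe sets, by shDCD array, with the brightest probe set filled. AK4, BNIP3, BNIP3L, HILPDA, STC1, CITED2 and ZNF395 have all symbols below 0, while CA12, NAMPT, LOXL2 and STC2 have symbols on both sides.

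Promoter matches were set beside these orders for the genes with a promoter sequence. Of the 9 genes with pLKO above all shDCD arrays, all 9 had ACGTG or GCGTG, 8 (88.9%) had ACGTG and 7 (77.8%) had the palindrome CACGTG, namely AK4, ANKRD37, FUT11, BNIP3, BHLHE40, MAFF and CITED2. Of the 12 other tested genes, 10 (83.3%) had a match, 5 (41.7%) had ACGTG and 2 (16.7%), PPP1R3C and WSB1, had the palindrome. The 12 include HIF1A, EPAS1 and ARNT, which are regulators rather than induced genes and hold no ACGTG. NDRG1, BNIP3L, HILPDA, ZNF395 and STC1, also highest in pLKO, had no promoter sequence. The palindrome was singled out after its matches were seen. ARNT and RORA, which lay inside the shDCD range, had no match in this window. The difference between these groups of genes was not tested.

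**Figure D5:**
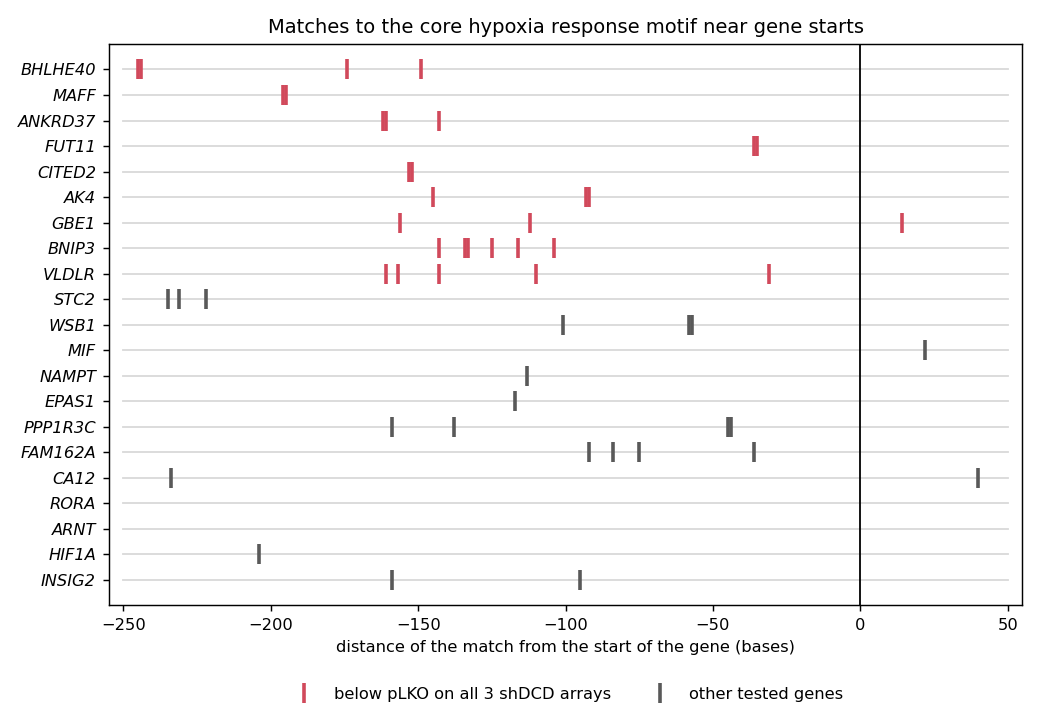
Position of each ACGTG or GCGTG match (x axis, bases from the transcription start) in the promoters of the hypoxia genes, with genes whose pLKO value was above all 3 shDCD arrays in red and other tested genes in grey. All 9 genes in red have at least 1 match, and matches occur in 10 of the 12 genes in grey.

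Genes that set the level or the activity of HIF were compared as the control side of the pathway. Of 16 genes of oxygen sensing and HIF control, 14 were tested, 3 with pLKO above all shDCD arrays and 4 with pLKO below, and their median log2 differences were 0.17, 0.23 and -0.17 for IBC-I, IBC-II and IBC-III. HIF1AN, the asparaginyl hydroxylase that blocks coactivator binding by HIF1A in oxygen, was at 151, 128 and 158 in shDCD cells and 82.2 in pLKO (1.84-fold, 1.56-fold and 1.92-fold higher). CREBBP, the coactivator, was at 379, 370.1 and 595 in shDCD cells and 309 in pLKO. RBX1, the RING subunit of the VHL ligase, was at 264, 407 and 171 in shDCD cells and 487 in pLKO. The share with pLKO above (21.4%) was near the background of 21.3%, and pLKO lay below for 4 of the 14, where it did so for 18.8% of all genes.

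Downstream, 22 other hypoxia-induced genes were tested of 24 listed, and 10 had pLKO above all shDCD arrays and 1 below (21.3% and 18.8% over all genes), with median log2 differences of -0.41, -0.95 and -0.51 in IBC-I, IBC-II and IBC-III. For glycolysis, 20 of 22 genes were tested, with 16 above and 2 below and medians of -0.89, -0.91 and -1.71. Without IBC-III, pLKO was above both remaining arrays for 14 of the 22 other induced genes and 17 of the 20 glycolysis genes, and below both for 2 of each (30.8% and 31.2% over all genes). The share with pLKO highest was thus 50% for the hypoxia genes outside glycolysis, 45.5% for the other induced genes and 80.0% for glycolysis, on the same 4 arrays, and limma called 0 genes of either list at an adjusted p under 0.05 (4 lower and 0 higher in each list at an unadjusted p under 0.05, where 0.495% and 0.22% of all genes were).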

How the data were processed

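MDA-MB-361 cells were profiled on 4 arrays, 3 shDCD and 1 pLKO, where clones 1, 2 and 3 of the labels were matched by number to the study's IBC-I to IBC-III. Each array was deposited as 1 linear intensity per probe set. The methods name dChip for the authors' analysis, but which program wrote these intensities is not stated in the sources used here. The array medians (20, 24.7 and 13.4 in shDCD cells and 20.6 in pLKO) differed, so the values were treated as not yet normalized.

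Of 54675 probe sets, 62 controls were left out. Intensities of 0 were set to 0.1, log2 values were quantile normalized (limma 3.58.1, R 4.3.3) and values under 16 set to 16. Probe sets whose mean log2 value reached the median of all such means were tested (27307), and a gene was represented by its brightest single-gene probe set. The platform annotation gave 41091 probe sets a single gene, 1801 several and 11721 none, and 41037 of the first were updated by gene identifier to a RefSeq table of GRCh38.p14. Promoters came from RefSeq on that build.

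Each shDCD array was compared with pLKO by order and by fold. limma was fitted to both groups, with Benjamini-Hochberg adjustment over all tested probe sets and a threshold of 0.05. Depth is signal over background. Before normalization, 43.9%, 39.3% and 55.1% of probe sets had a deposited intensity under 16 in IBC-I, IBC-II and IBC-III, and 43.4% did in pLKO. The number of arrays limits the precision. The scripts were tested on simulated data.

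The genes and lists were chosen with earlier results of these data known. Full values are given for the HIF subunits and for the 10 genes with the largest smallest change in 1 direction, and for others where a probe set or setting turns the direction. Up to 3 genes were named per pathway list by the same rule. Alternatives were median centring, the values as deposited, a floor of 1 or 64, a filter at the upper quartile or none, other choices of probe set, other fold rules, each shDCD array left out, limma with trend and robust settings, a test of the 3 log2 differences against 0, a filter reached by each group alone and other promoter motifs. Figures were drawn with matplotlib 3.10.9.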

Additional observations from a re-analysis of the deposited data

Results flagged for a closer look

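The control probe sets at the 3' and 5' ends of ACTB and GAPDH, which enter none of the comparisons, gave ratios above the pLKO array on 2 shDCD arrays. The ACTB ratio was 9.67 in IBC-I and 42.6 in IBC-III, and 5.29 in pLKO. The GAPDH ratio was 2.18 in IBC-I and 13.1 in IBC-III, and 1.09 in pLKO. IBC-II was below pLKO in both, at 2.58 and 1.02. The part of these ratios in the values of the hypoxia genes was not tested.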

How the results depend on the processing

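No paired analysis was possible because the groups share only replicate number 1 and pLKO has 1 array, so no fit with the replicate number as a block could be made. Over the alternatives, the count of genes with pLKO above all shDCD arrays ranged from 10 to 18 of those tested, and 13 or 14 of the 14 kept that order, except under an upper quartile filter, where 10 did (BHLHE40, VLDLR, STC1 and FUT11 were no longer tested). GBE1 lost it with the values as deposited, VLDLR with a floor of 64, and MAFF with the mean or median of its probe sets. Of 357 mean log2 differences under alternatives, 327 kept direction and side of the threshold, 29 turned direction, and 1 (FUT11, floor of 64) passed the threshold.

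The count at least 3-fold lower was 3 by a 2-fold rule, 6 by a 1.5-fold rule and 3 with the values as deposited. Of all genes, 0.817% met the 2-fold rule, and the shares for the 1.5-fold rule and the deposited values are not given. The count with pLKO below all shDCD arrays was 1 with median centring, with a floor of 64, with the upper quartile filter and with a filter that each group had to reach alone (chosen after seeing the data, 27 genes), and 0 with the values as deposited. Leaving out 1 shDCD array gave 15 to 18 genes above, 2 to 5 below and 2 to 4 at least 3-fold lower. With fewer arrays, each of these rules is easier to meet for any gene. With median centring, 10 genes were at least 2-fold lower in IBC-I, 0 were 2-fold higher in IBC-III, and the medians were -0.81 in IBC-I and -0.91 in IBC-III. With the values as deposited, 10 were 2-fold lower in IBC-I and 21 in IBC-III, 1 was 2-fold higher in IBC-II and 0 in IBC-III, and the medians were -0.85, -0.27 and -1.53 in IBC-I, IBC-II and IBC-III. These settings also moved the median of all genes, to -0.38, 0.09 and -0.54 with median centring and to -0.43, 0.36 and -1.08 as deposited. In IBC-III as deposited, the median of all genes was thus itself more than 2-fold lower, so the count of 21 is not particular to the set. For the alternatives of scale, floor and probe set, the share of all genes at 2-fold is not given. The median of the set minus that of all genes was -0.31, -0.64 and -0.23 with quantile normalization, -0.43, -0.62 and -0.37 with median centring and -0.43, -0.63 and -0.45 as deposited. With a floor of 64, 6 genes were 2-fold lower in IBC-III, and the medians were -0.33 in IBC-II and -0.060 in IBC-III. With the mean of all probe sets the IBC-II median was -0.43 and 2 genes were 2-fold higher in IBC-III. With the median of tested probe sets the medians were -0.52 in IBC-I and -0.56 in IBC-III and 3 genes were 2-fold higher in IBC-III. Promoters with ACGTG were 65.4% and with CACGTG, chosen after seeing the data, 38.5%.

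limma called 1 gene of the set with a floor of 64 (FUT11, log2 difference -0.036, adjusted p = 0.0205) and 1 without a filter (ANGPTL4, log2 difference -0.35, adjusted p = 0.00587). In both, all 3 shDCD arrays stood at the floor, so their spread was 0. The same settings called 430 and 1308 probe sets lower and 7 and 19 higher in all, where 11238 of 27307 and 15662 of 54613 had no spread among the shDCD arrays. A test of the 3 log2 differences against 0, which sets every shDCD array against the same pLKO array and so leaves out the spread of the control, called 1 probe set lower and 0 higher after adjustment (2214 and 2036 before it), none of the hypoxia genes.

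The direction of the mean difference turned in 11 genes, and for all of them pLKO lay inside the shDCD range or, for LOXL2, the probe sets disagreed. With median centring it was -0.071 for HIF1A, -0.38 for FAM162A, -0.34 for CA12 and -0.23 for PPP1R3C. With the values as deposited it was -0.20 for HIF1A, -0.047 for ARNT, -0.13 for RORA, -0.51 for FAM162A, -0.48 for CA12 and -0.37 for PPP1R3C. With the mean of all probe sets it was -0.094 for ARNT and -0.13 for CA12, and with the median of tested probe sets -0.16 for ARNT, -0.48 for CA12 and 0.099 for NAMPT. Leaving out 1 shDCD array at a time, the mean ranged between -0.036 (without IBC-III) and 0.83 for HIF1A, -0.079 and 0.14 (without IBC-I) for EPAS1, -0.27 (without IBC-II) and 0.30 for ARNT, -0.050 (without IBC-III) and 0.22 for RORA, -0.36 (without IBC-I) and 0.45 for CA12, -0.24 (without IBC-III) and 0.48 for PPP1R3C, -0.13 and 0.024 (without IBC-I) for NAMPT, -0.58 and 0.064 (without IBC-II) for WSB1, -1.15 and 0.35 (without IBC-III) for RAB20, and -0.43 and -0.38 for LOXL2. These settings differ in having fewer arrays, and the brightest probe set was chosen anew in each. Genes then read by another probe set included ARNT (without IBC-I or IBC-II) and LOXL2. The cause of the other turns was not tested.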
